A study of Mus musculus with 6 samples.

Results

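*Runx2*, *Sp7* (*Osterix*), *Dlx3*, *Dlx5*, *Dlx6*, *Msx1*, *Msx2*, *Atf4* and *Twist1* encode transcription factors that direct cells into the osteoblast lineage or hold them back from it. They were chosen by name, as 9 of the 55401 gene identifiers counted in mouse tibias, and all 9 passed the expression filter that left 20636 genes for testing. Bulk RNA-Seq of polyadenylated RNA was compared between 3 Atrx-cKO mice (*Osterix-Cre*; *Atrx* f/y) and 3 control mice (*Atrx* f/y), all male and 8 weeks old. Both groups carried the floxed *Atrx* allele, and the *Osterix-Cre* transgene was present in every Atrx-cKO mouse and in no control. In these libraries, effects of the transgene and of the *Atrx* deletion cannot be told apart. In separate mice, the study reported no significant difference in tibial *Runx2* between *Osterix-Cre* mice with unfloxed *Atrx* and floxed controls. The transgene drives a GFP-Cre fusion protein from *Sp7* regulatory sequence in a Tet-off system. Doxycycline kept Cre off from conception until 3 weeks of age, so deletion could start only after that, in cells that used this promoter. The comparison asks whether the factors that set up the osteoblast program differ in abundance in bone when *Atrx*, a chromatin remodeler, is deleted in preosteoblasts.

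RUNX2 commits mesenchymal progenitors to the osteoblast lineage, and SP7 acts downstream of it to complete the step to a bone-forming cell. The homeodomain proteins of the DLX and MSX families bind closely related DNA sites; DLX3 and DLX5 are known as activators of osteoblast genes, and MSX2 as a repressor that opposes them. ATF4 supports amino acid supply and late osteoblast gene expression, and TWIST1 binds RUNX2 and restrains it in early progenitors.

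The libraries held between 50977777 and 70571655 counts on genes, those of Atrx-cKO tibias between 55178546 and 58029939. Values are given as CPM (counts scaled to library size) after TMM normalization. The tibias held marrow and adhering tissue along with bone. Summed markers of skeletal muscle ranged from 704 to 2379 CPM in Atrx-cKO and from 802 to 11847 CPM in control tibias, with control 3 the highest, and summed neutrophil markers ranged from 9431 to 13608 CPM and from 7774 to 11133 CPM. In bulk tissue, fewer cells of a type and less RNA per cell cannot be told apart. *Atrx* itself had a log2 fold change of -0.047 (standard error 0.080, edgeR adjusted p = 0.992) between Atrx-cKO and control; a count over the whole gene in the whole tibia does not check the deletion of the floxed part in *Osterix*-expressing cells.

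None of the 9 factors passed the threshold, an adjusted p under 0.05 and a difference of 1 or more on the log2 scale, in the quasi-likelihood test of edgeR, adjusted by the Benjamini-Hochberg method. In either direction, 0.0145% of all tested genes passed. The adjusted p was 0.992 for 8 factors and 0.995 for *Dlx5*. At an unadjusted p under 0.05, 0 of the 9 factors passed in edgeR and 1, *Dlx3*, in DESeq2, beside 3.64% and 3.84% of all genes tested by each tool. The Atrx-cKO and control ranges overlapped for all 9 factors, whereas the groups did not overlap for 8.31% of tested genes. All 9 estimates lay below 0, as did 48.8% of all tested genes, with a median log2 fold change of -0.13 against 0.0050 over all tested genes. The 9 genes are not independent of each other, since they were measured in the same 6 libraries and tended to be low or high in the same ones.

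**Figure D1:**
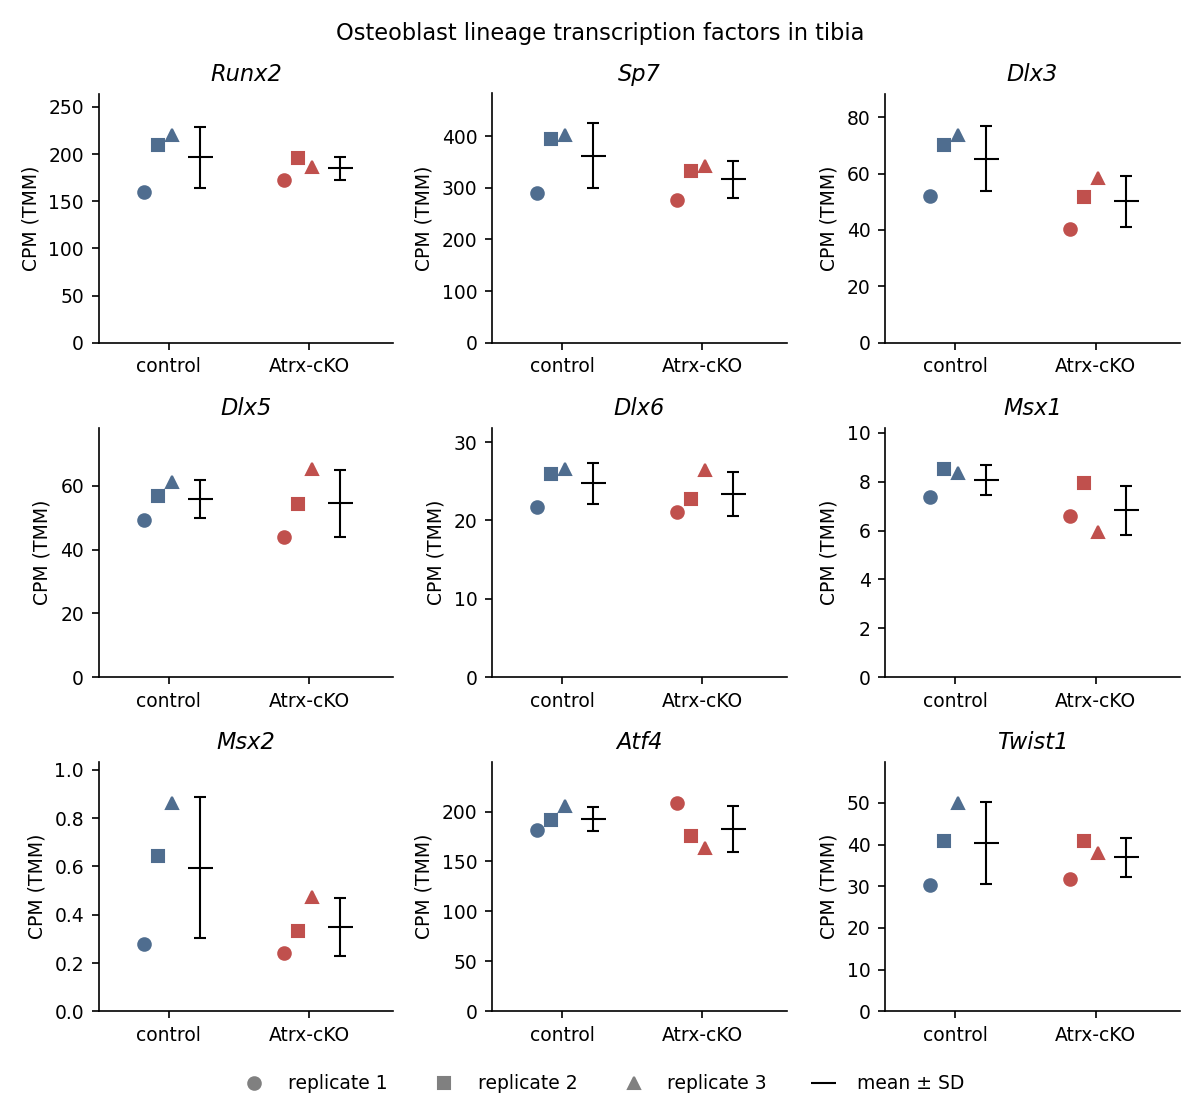
TMM-normalized CPM (vertical axis) of each factor in the 3 Atrx-cKO and 3 control tibias, one point per library, with the group mean ± SD. The groups overlap for every factor, and *Msx2* lies below 1 CPM in all 6 libraries.

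*Runx2* (ENSMUSG00000039153, chr17:44495987-44814797 of GRCm38, minus strand), the first factor of the lineage, had 172, 196 and 186 CPM in Atrx-cKO 1 to 3 and 159.5, 209.6 and 220.2 CPM in control 1 to 3. The 3 Atrx-cKO tibias lay inside the range of the controls, which held both the lowest and the highest value. The group means were 185 ± 11.9 CPM in Atrx-cKO and 196 ± 32.4 CPM in control (SD, n = 3 each). The log2 fold change was -0.087 (standard error 0.13, 95% interval -0.39 to 0.22, edgeR adjusted p = 0.992). On the linear scale that interval runs from -23.8% to 16.3% of the control level. By RT-qPCR, the study reported a trend toward higher *Runx2* in Atrx-cKO tibias, the opposite sign to the estimate here. The interval here includes differences of either sign.

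*Sp7* (ENSMUSG00000060284, chr15:102356606-102367182, minus strand), whose regulatory sequence also drives the Cre transgene, had 276, 333 and 342 CPM in Atrx-cKO 1 to 3 and 289.6, 394 and 402 CPM in control 1 to 3. Control 2 and control 3 lay above every Atrx-cKO tibia, while control 1 lay between Atrx-cKO 1 and Atrx-cKO 2. The means were 317 ± 35.7 and 362 ± 62.8 CPM, a log2 fold change of -0.19 (standard error 0.15, 95% interval -0.54 to 0.16, edgeR adjusted p = 0.992). The tested neighbors of *Sp7* were *Sp1*, a broadly expressed family relative, with 126 ± 1.92 and 124 ± 4.86 CPM in Atrx-cKO and control, and the transcript *Gm36246*. *Gm36246* had 0.241 ± 0.0431 CPM in Atrx-cKO and 0.0777 ± 0.0516 CPM in control, with all 3 Atrx-cKO tibias above the controls, and did not pass adjustment (log2 fold change 1.57, standard error 0.59, edgeR adjusted p = 0.992). At so low a level it could pass the expression filter only through the Atrx-cKO libraries. The separation of its groups is therefore partly set by the filter.

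The sequence around the RefSeq start of *Runx2* holds matches to the RUNX consensus TGNGGTT, the site that RUNX proteins bind, and these stretches are shown because *Runx2* is known to act on its own promoter. The RefSeq promoter table, a short window around each gene's start, has an entry for 5 of the 9 factors (GRCm38.p6; none for *Sp7*, *Dlx3*, *Dlx5* and *Dlx6*). The sequences are 5′ to 3′ on the gene's strand, with the matches in capitals, which read as the reverse complement of the consensus. The match in the upper one begins 81 bases before the RefSeq start (chr17:44814691-44814720, minus strand), and those in the lower one 22 and 30 bases after it (chr17:44814581-44814610, minus strand). GENCODE M21 starts the gene further upstream, at 44814797, so both stretches lie inside the gene as placed above.
Runx2 before the RefSeq start: tgtgaggtcacaAACCACAtgattctgtct
Runx2 after the RefSeq start: caaacAACCACAgAACCACAagtgcggtgc
Of 32851 mouse promoter windows, all of one length,, 14.89% held at least 1 match on either strand and 0.1157% held 3 or more, as that of *Runx2* did. The windows of *Atf4* held 1 match and those of *Msx1*, *Msx2* and *Twist1* held 0. A match is a run of letters and not a measured binding site.

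The homeodomain factors share a homeobox, the segment that encodes their DNA-binding domain, and those of *Dlx3*, *Dlx5*, *Dlx6* and *Msx2* are shown to make plain how far the coding sequences of these 4 are alike; no other pair is compared here. Each run of 180 bases was read from GRCm38 by the GENCODE M21 exons, 5′ to 3′ on the coding strand. Capitals mark bases that differ from *Dlx5*, which is therefore in lower case throughout.
Dlx3: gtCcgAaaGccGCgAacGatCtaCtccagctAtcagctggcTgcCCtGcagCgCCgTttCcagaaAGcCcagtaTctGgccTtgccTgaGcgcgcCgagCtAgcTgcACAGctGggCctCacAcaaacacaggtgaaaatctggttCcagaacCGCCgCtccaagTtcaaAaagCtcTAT
Dlx5: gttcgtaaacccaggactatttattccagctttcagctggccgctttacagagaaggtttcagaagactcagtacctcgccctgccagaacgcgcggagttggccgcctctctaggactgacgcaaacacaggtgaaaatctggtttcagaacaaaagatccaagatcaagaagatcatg
Dlx6: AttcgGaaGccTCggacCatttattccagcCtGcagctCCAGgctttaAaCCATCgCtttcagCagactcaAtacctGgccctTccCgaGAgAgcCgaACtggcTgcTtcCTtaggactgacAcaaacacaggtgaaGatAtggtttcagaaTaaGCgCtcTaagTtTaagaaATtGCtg
Msx2: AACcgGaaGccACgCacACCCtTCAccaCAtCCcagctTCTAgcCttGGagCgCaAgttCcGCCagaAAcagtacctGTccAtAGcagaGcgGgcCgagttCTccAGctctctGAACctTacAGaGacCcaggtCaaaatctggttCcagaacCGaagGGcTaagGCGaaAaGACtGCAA
Set against *Dlx5*, the homeobox of *Dlx6* matched at 73.33% of bases, that of *Dlx3* at 71.67% and that of *Msx2* at 58.89%. The longest identical run in any pair of these 4 was 23 bases, between *Dlx3* and *Dlx5*. Over whole transcripts, no window of 50 bases was shared between any of the 9 factors. Other annotated genes, read on either strand, shared 5.7% of the windows of *Runx2* and 6.1% of those of *Dlx6*. They shared 0.46% of those of *Msx2*, 0.18% of those of *Sp7* and none of the other factors. The homeobox of *Msx2* (chr13:53468370-53468549, minus strand) lies within exon 2, and those of *Dlx3* (chr11:95121767-95123456), *Dlx5* (chr6:6878441-6879657) and *Dlx6* (chr6:6865140-6867088) run from exon 2 into exon 3 across an intron.

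*Dlx3* (ENSMUSG00000001510, chr11:95120119-95125296, plus strand), an activator of osteoblast genes that is mutated in an inherited disorder with dense bone, had the lowest p of the 9. It had 40.2, 51.9 and 58.2 CPM in Atrx-cKO 1 to 3 and 52.0, 70.2 and 73.6 CPM in control 1 to 3. Only Atrx-cKO 3 reached into the control range, where it lay above control 1. The means were 50.1 ± 9.14 and 65.3 ± 11.6 CPM, a log2 fold change of -0.38 (standard error 0.17, 95% interval -0.78 to 0.015, edgeR adjusted p = 0.992). In linear terms the estimate is -23.3% of the control level, with limits of -41.7% and 1.07%. Its neighbor *Dlx4* had 2.24 ± 0.285 CPM in Atrx-cKO and 2.51 ± 0.648 CPM in control (log2 fold change -0.16, edgeR adjusted p = 0.992).

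*Dlx5* (ENSMUSG00000029755, chr6:6877805-6882085, minus strand) and *Dlx6* (ENSMUSG00000029754, chr6:6863334-6868568, plus strand) are neighboring genes that point toward each other. *Dlx5*, an activator of *Runx2* and *Sp7* in osteoblast progenitors, had 44.1, 54.2 and 65.2 CPM in Atrx-cKO and 49.3, 56.9 and 61.3 CPM in control. The Atrx-cKO tibias held both the lowest and the highest value of the 6. The log2 fold change was -0.036 (standard error 0.15, 95% interval -0.38 to 0.31, edgeR adjusted p = 0.995), the smallest of the 9 in size. *Dlx6*, which shares skeletal roles with *Dlx5*, had 21.04, 22.7 and 26.5 CPM in Atrx-cKO and 21.7, 25.9 and 26.5 CPM in control. The groups covered almost the same range, with a log2 fold change of -0.079 (standard error 0.12, 95% interval -0.37 to 0.21, edgeR adjusted p = 0.992).

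*Msx1* (ENSMUSG00000048450, chr5:37820485-37824583, minus strand), a homeodomain repressor that keeps progenitors undifferentiated, had 6.58, 7.93 and 5.96 CPM in Atrx-cKO and 7.36, 8.51 and 8.36 CPM in control. Atrx-cKO 2 lay above control 1, and the other 2 Atrx-cKO tibias lay below every control. The log2 fold change was -0.24 (standard error 0.15, 95% interval -0.60 to 0.11, edgeR adjusted p = 0.992). *Msx2* (ENSMUSG00000021469, chr13:53466884-53473074, minus strand) was the least abundant, at 14, 19 and 28 counts in Atrx-cKO and 16, 43 and 41 counts in control, or 0.239, 0.333 and 0.475 CPM and 0.280, 0.646 and 0.861 CPM. Control 1 lay among the Atrx-cKO tibias, and the other 2 controls lay above all of them. Its log2 fold change of -0.76 had the widest error of the 9 (standard error 0.49, 95% interval -1.91 to 0.39, edgeR adjusted p = 0.992), so a 2-fold lower level of *Msx2* lay within its interval. Next to *Msx2*, *Drd1*, a dopamine receptor, had 0.109 ± 0.0423 CPM in Atrx-cKO and 0.323 ± 0.0420 CPM in control, with groups that did not overlap and an edgeR adjusted p of 0.992. *Drd1* could pass the expression filter only through the control libraries, so this separation is partly set by the filter.

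*Atf4* (ENSMUSG00000042406, chr15:80255184-80257541, plus strand), whose protein is controlled largely at translation, had 208, 175 and 164 CPM in Atrx-cKO and 182, 191 and 205 CPM in control. The 2 extreme values of the 6 were both in Atrx-cKO tibias, and the control values lay between them. The log2 fold change was -0.079 (standard error 0.11, 95% interval -0.33 to 0.18, edgeR adjusted p = 0.992). *Twist1* (ENSMUSG00000035799, chr12:33957671-33959829, plus strand), the RUNX2 inhibitor, had 31.8, 40.9 and 38.0 CPM in Atrx-cKO and 30.2, 40.8 and 49.8 CPM in control. As for *Runx2*, the controls held both the lowest and the highest tibia. Its log2 fold change was -0.13 (standard error 0.18, 95% interval -0.55 to 0.30, edgeR adjusted p = 0.992).

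Taking the 9 intervals side by side, all included 0 and 8 lay within a 2-fold difference in either direction, the exception being *Msx2*. A bound of 0.6 on the log2 scale held 7 of them, without *Dlx3* and *Msx2*. A p that misses the threshold does not show equal levels, and these intervals give the differences the data allow.

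**Figure D2:**
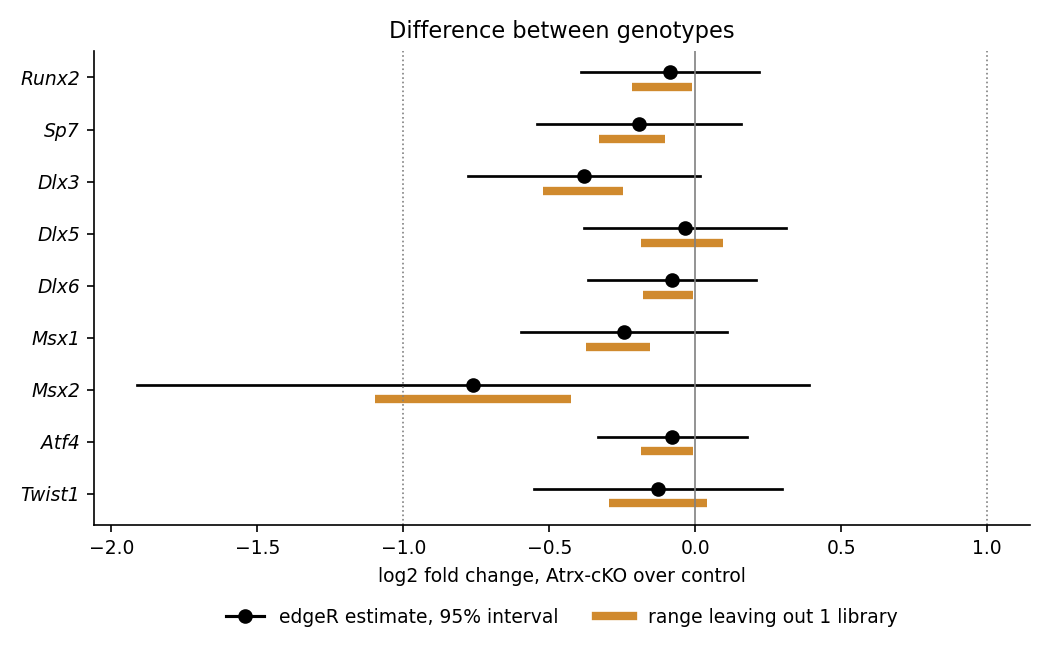
Log2 fold change of Atrx-cKO over control for each factor, with its 95% interval from the edgeR fit; the vertical line at 0 is no difference. Thick orange bars span the estimates with each library left out in turn, and dotted lines mark -1 and 1. All 9 estimates lie to the left of 0, from -0.036 for *Dlx5* to -0.76 for *Msx2*, and all 9 intervals cross 0.

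Levels of different genes were compared as CPM per kilobase of exon, averaged over all 6 tibias. *Sp7* was highest at 99.9 ± 15.3 CPM per kilobase (SD, n = 6), above 98.6% of tested genes, followed by *Atf4* at 79.6 ± 7.32. The ranges of these 2 overlapped, with *Sp7* above *Atf4* in 5 of 6 libraries. *Dlx5* at 24.4 ± 3.42, *Twist1* at 23.7 ± 4.37, *Dlx3* at 22.1 ± 4.80 and *Runx2* at 21.6 ± 2.57 CPM per kilobase formed a middle group whose neighbors in the order did not differ beyond their spread. *Dlx6* followed at 10.1 ± 1.06, *Msx1* at 2.41 ± 0.328 and *Msx2* at 0.144 ± 0.0737 CPM per kilobase. Every library placed *Atf4* above *Dlx5*, *Runx2* above *Dlx6*, *Dlx6* above *Msx1* and *Msx1* above *Msx2*, which stood above only 6.89% of tested genes.

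**Figure D3:**
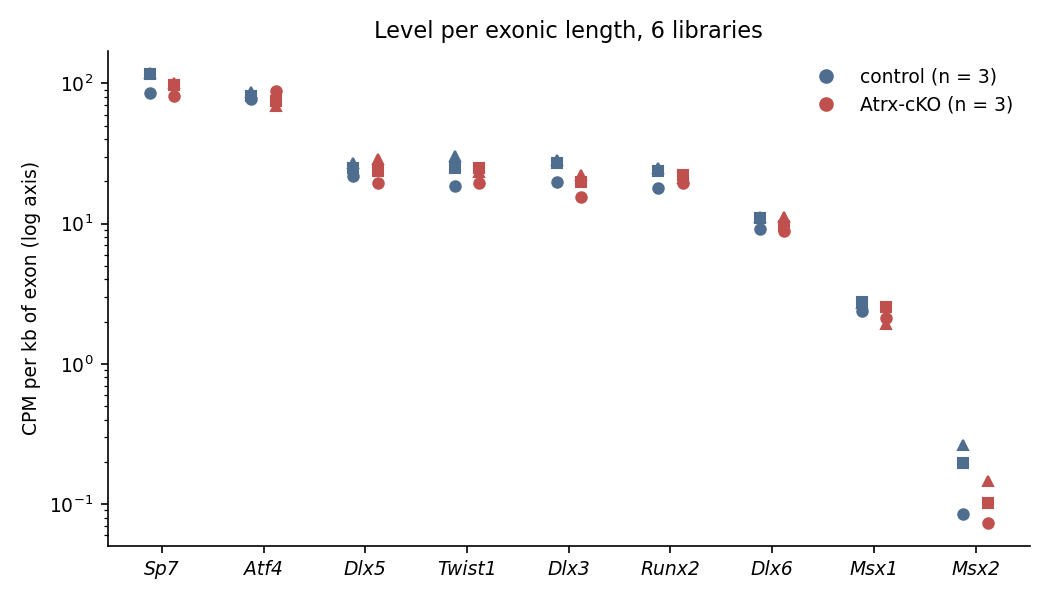
Level of each factor in CPM per kilobase of exon on a log axis, ordered by the mean over the 6 libraries, with one point per library in the color of its group. *Sp7* and *Atf4* lie at the top, and *Msx2*, at 0.144 CPM per kilobase, lies far below the rest.

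The factors tended to be low or high in the same tibias. Control 1 was the lowest control for 9 of 9 factors, and control 3 was the highest control for 8 of 9 and the highest of all 6 tibias for 6. Among the Atrx-cKO tibias, Atrx-cKO 1 was lowest for 7 of 9 factors and lowest of all 6 for 5. *Atf4* did not share the pattern in the Atrx-cKO tibias, where Atrx-cKO 1 was the highest. The products of the mature osteoblast, a list of 20 genes that includes *Col1a1*, *Alpl* and *Bglap*, summed to 131508 CPM in control 1 and to 220970 and 201281 CPM in controls 2 and 3, against 138256 to 145402 CPM in the Atrx-cKO tibias. Type I collagen genes make up most of each sum. With the 20 genes weighted alike, their mean-centered log2 CPM was -0.21 in control 1 and 0.31 and 0.27 in controls 2 and 3. In Atrx-cKO 1 to 3 it was -0.23, -0.082 and -0.060. The low sum in control 1 goes with its low levels of the 9 factors, and the part of osteoblast content in these levels was not tested beyond the ratios given next. Control 1 also had the highest summed erythroid markers, 6234 CPM, against 2410 and 2984 CPM in controls 2 and 3 and 3768 to 4881 CPM in Atrx-cKO. Among the controls it had the highest summed neutrophil markers, 11133 CPM, and the lowest of skeletal muscle, 802 CPM. The part of marrow or blood content in these levels was not tested.

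**Figure D4:**
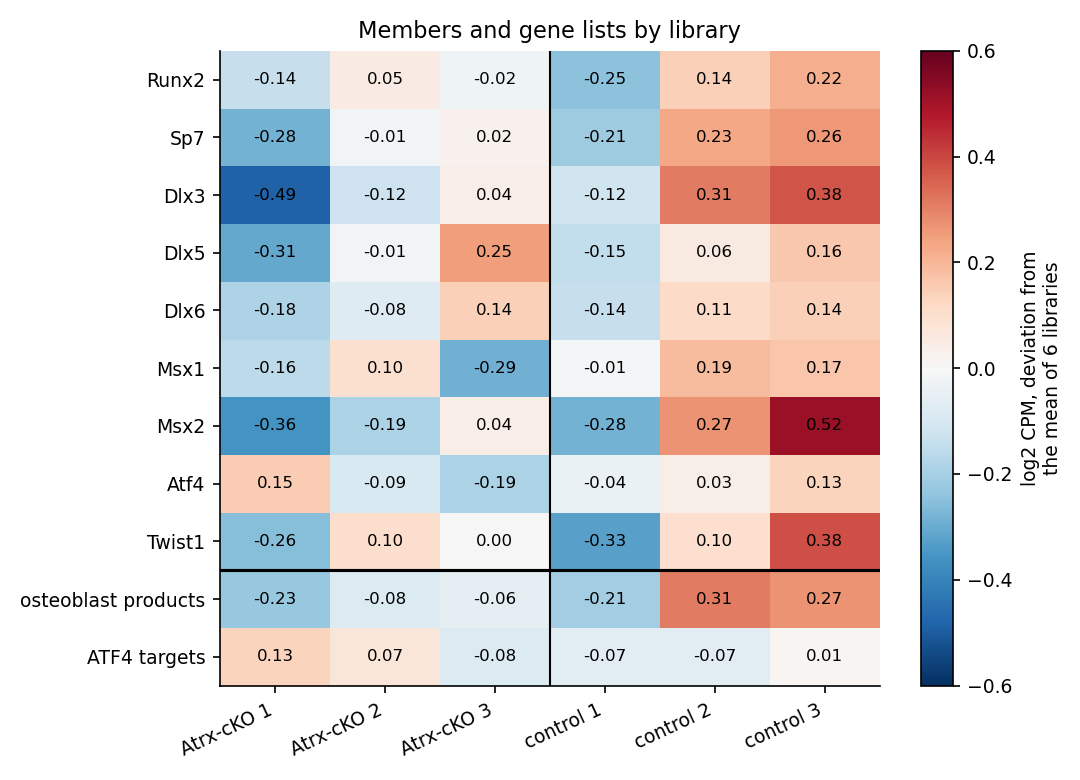
Mean-centered log2 CPM (0.5 CPM added) of each factor, with the mean of the osteoblast products and of the ATF4 targets, in each of the 6 libraries; blue is below and red above the mean of that row. Control 1 is low and control 3 high for most factors, and *Atf4* in Atrx-cKO 1 stands at 0.15 above its mean while the other 8 factors in that library lie below theirs.

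Ratios between 2 factors were taken within each library, with 0.5 CPM added to both. The log2 ratio of *Sp7* to *Runx2* was 0.68, 0.76 and 0.87 in Atrx-cKO and 0.86, 0.91 and 0.87 in control, a difference of -0.11 between the means (exact two-sided permutation p = 0.3, Benjamini-Hochberg adjusted 0.6 over 4 ratios). One Atrx-cKO tibia, Atrx-cKO 3, lay inside the control range and the others lay below it. The inhibitor-to-target ratio of *Twist1* to *Runx2* differed by -0.029 (exact permutation p = 0.8, adjusted 0.8), and that of the neighbors *Dlx6* and *Dlx5* by -0.031 (exact permutation p = 0.7, adjusted 0.8). The ratio of the opposed factors *Msx2* and *Dlx5* differed by -0.29 (exact permutation p = 0.2, adjusted 0.6). *Msx2* lies near the amount added, and the difference was -0.52 with 0.1 CPM added and -0.18 with 1 CPM added. With 3 tibias against 3, the smallest p this test can give is 0.1.

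Each factor was then set against the geometric mean of the 20 osteoblast products in the same library. For *Runx2* this log2 ratio was -1.76, -1.72 and -1.82 in Atrx-cKO and -1.89, -2.02 and -1.90 in control. All 3 Atrx-cKO tibias lay above all 3 controls, by 0.17 between the means (exact two-sided permutation p = 0.1, the smallest possible, and 0.45 after adjustment over 9 factors). The difference stayed between 0.13 and 0.20 when each tibia in turn was left out. Its sign is opposite to that of the *Runx2* level itself, with the products at a lower log2 fold change than *Runx2*. For the other 8 factors the exact permutation p ran from 0.2 to 1.0 (adjusted 0.45 to 1.0), with differences from -0.13 for *Dlx3* to 0.20 for *Dlx5*.

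The products themselves had a median log2 fold change of -0.29, with 18 of 20 below 0, 0 that passed the threshold, and 1 below 0 at an unadjusted p under 0.05 (5% of the list, beside 2.05% of all tested genes). That gene was *Ibsp*, bone sialoprotein and a known RUNX2 target, with 1264, 1238 and 1293 CPM in Atrx-cKO and 1307, 1978 and 2114 CPM in control. Control 1 lay just above the Atrx-cKO tibias and the other 2 controls far above them. Its log2 fold change of -0.51 (standard error 0.18) had an edgeR adjusted p of 0.992. *Col1a1* and *Bglap* were among the 18 products below 0 and did not pass the threshold. For these genes (*Bglap* as *Ocn*), the study's RT-qPCR gave increasing trends in Atrx-cKO tibias.

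Close family relatives of the 9 factors were tested where their counts allowed, 11 of 14, since *Sp8*, *Dlx2* and *Msx3* had at most 4 counts in any library. Of the 11, 4 lay below 0 with a median log2 fold change of 0.030, and 0 passed the threshold. *Atf5*, a relative of *Atf4* in the stress response, had 107, 104 and 82.0 CPM in Atrx-cKO and 72.1, 75.5 and 84.7 CPM in control. Atrx-cKO 3 lay inside the control range, and the log2 fold change of 0.33 (standard error 0.12) did not pass adjustment (edgeR adjusted p = 0.992).

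Among 18 partners and antagonists of RUNX2, such as *Cbfb*, its DNA-binding partner, 11 lay below 0 with a median of -0.10 and 0 passed. *Snai2*, a repressor of the SNAIL family, had 37.6, 31.9 and 49.0 CPM in Atrx-cKO and 50.01, 49.2 and 52.8 CPM in control, so that all 3 Atrx-cKO values lay below the controls, the third by a small margin. Its log2 fold change was -0.36 (standard error 0.15, edgeR adjusted p = 0.992).

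Of 32 other regulators of the lineage, 18 lay below 0 with a median of -0.011, and 0 passed the threshold. At an unadjusted p under 0.05, 6 were lower in Atrx-cKO (18.8% of the list, beside 2.05% of all tested genes) and 0 higher, and the groups did not overlap, with Atrx-cKO below, for the same 6 (beside 4.01% of all tested genes), *Fosl2*, *Nfatc1*, *Jun*, *Prrx2*, *Sox4* and *Alx4*. *Fosl2*, an AP-1 subunit that acts in osteoblasts and osteoclasts, had 136, 131 and 136 CPM in Atrx-cKO and 175.04, 157.1 and 170.1 CPM in control. The groups did not overlap, with a log2 fold change of -0.32 (standard error 0.078, edgeR adjusted p = 0.992). *Nfatc1*, the master regulator of osteoclasts with a role in osteoblasts, had a log2 fold change of -0.28 (standard error 0.083). It had 99.9 ± 1.54 CPM in Atrx-cKO and 121 ± 9.90 CPM in control. *Jun*, the partner of FOS proteins in AP-1, had 28.5 ± 3.08 CPM in Atrx-cKO and 40.6 ± 9.99 CPM in control, and *Prrx2*, a homeobox gene of limb mesenchyme, 2.89 ± 0.245 and 4.96 ± 1.86 CPM. All 4 had an edgeR adjusted p of 0.992. Control 3 was the highest tibia for *Jun* and *Prrx2*, and without it their log2 fold changes went from -0.51 to -0.31 and from -0.78 to -0.45. Both *Fosl2* and *Nfatc1* are also expressed by osteoclasts, whose summed markers ranged from 2868 to 3634 CPM in Atrx-cKO and from 2924 to 4560 CPM in control with 9 of 10 markers below 0, and the part of osteoclasts in these values was not tested.

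Known targets of ATF4 gave 6 of 25 genes below 0, a median of 0.12 and 0 genes at an unadjusted p under 0.05. The 2 with the lowest p lay on opposite sides. *Trib3*, a pseudokinase of the stress response, had a log2 fold change of 0.46 (standard error 0.21), and *Slc7a11*, the cystine transporter, one of -0.47 (standard error 0.22), each with an edgeR adjusted p of 0.992.

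**Figure D5:**
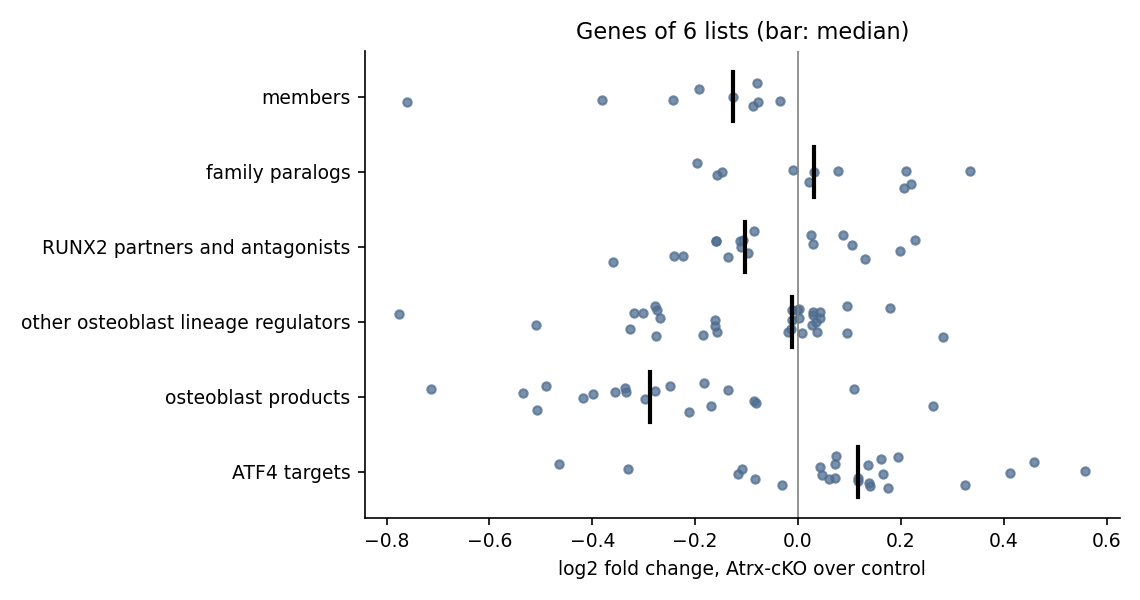
Log2 fold change of Atrx-cKO over control for every tested gene of the 9 factors and of each related gene list, one point per gene, with the median of each list as a line. The medians run from -0.29 for the osteoblast products to 0.12 for the ATF4 targets, and no gene passes the threshold.

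Some counts of *Runx2* and *Dlx6* could be shared with transcripts on the opposite strand. *Runx2os1* overlaps 519 exonic bases of *Runx2* and had 9.41 ± 1.05 CPM in Atrx-cKO and 9.32 ± 1.01 CPM in control, and *Dlx6os2* overlaps 104 exonic bases of *Dlx6* and had 4.52 ± 0.546 and 4.68 ± 0.883 CPM. The labels call the libraries strand specific, but whether reads were counted by strand is not given in the sources used here. The log2 fold changes of these antisense genes were 0.013 and -0.051 (edgeR adjusted p = 0.998 and 0.994). Per kilobase of exon, *Runx2os1* had 11.9 CPM in Atrx-cKO and 11.8 in control, against 20.9 and 22.2 for *Runx2*. *Dlx6os2* had 3.34 and 3.46 CPM per kilobase, against 9.9 and 10.4 for *Dlx6*. How many counts were shared was not tested. The other 7 factors share no exonic base with another annotated gene.

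The genes most like *Runx2* over the 6 tibias, by the root mean square difference of mean-centered log2 CPM, were *Arfip2* (0.022), *Ykt6* (0.027) and *Chpf* (0.028), where the median over all tested genes was 0.222. For *Sp7* they were *Epb41l3* (0.019), *Pcdhb17* (0.026) and *Pard6g* (0.027), with a median of 0.256. Among the 9 factors, *Sp7* was nearest to *Runx2* at 0.080, followed by *Twist1* at 0.095 and *Dlx6* at 0.102. Such closeness over 6 libraries is a description and was picked from 20636 genes.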

How the data were processed

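Tibia RNA of 3 Atrx-cKO and 3 control mice was sequenced as paired-end reads of polyA-selected libraries. The authors deposited raw counts per Ensembl gene, 1 table per library. The submitters' processing notes name GRCm38 and DESeq2, and the aligner and counting program are not given in the sources used here. Entries that name no gene entered neither the library sizes nor the tests; reads on no feature alone made up 51.6% to 52.4% of the counts, and 42.8% to 43.8% lay on genes. A count of 0 allows up to 3 counts, 0.0425 to 0.0588 CPM, which covers counting error only.

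Groups came from the sample labels, and all 6 libraries were used. Genes were placed by GENCODE M21 on GRCm38 (55141 of 55401 identifiers). Counts were fitted with edgeR 4.0.16 in R 4.3.3 (TMM, filterByExpr at its defaults, glmQLFit and glmQLFTest, genotype alone) over 20636 genes, with Benjamini-Hochberg adjustment over all of them. A call needed an adjusted p under 0.05 and a difference of 1 or more on the log2 scale. Ratios used CPM with 0.5 CPM added and exact two-sided permutation tests, which cannot go below p = 0.1 here. Replicates differed by more than sampling noise (chi-square per degree of freedom 15.8 to 137), and since the labels give no animal identifiers, p-values measure only the spread between these libraries.

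The 9 factors and the gene lists were chosen with earlier results of these data known. Named were the 9 factors, *Atrx*, genes overlapping or next to a factor, the 3 genes most like *Runx2* and *Sp7*, and from each list the genes with an unadjusted p under 0.05, up to 4 by lowest p, or otherwise the 2 with the lowest p; *Col1a1*, *Alpl*, *Bglap*, *Cbfb*, *Sox4* and *Alx4* are named without values, the last 2 after their values were seen. Alternatives were RLE and upper-quartile scaling, other count filters, DESeq2 1.42.0, a replicate block, other added CPM and leaving out each library. In simulated counts for the Atrx-cKO comparison over 20636 genes, edgeR recovered 71 of 100 genes changed by a log2 of 1 and 97 of 100 changed by 2, with 15 false calls. DESeq2 recovered 86 and 99 of them, with 81 false calls. Each gene was drawn independently, unlike the 9 factors, which tended to be low or high in the same libraries. Recovery there needed only an adjusted p under 0.05, without the log2 threshold of a call. The changed genes were drawn from those with a mean above 1 CPM, so the level of *Msx2* was not covered.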

Additional observations from a re-analysis of the deposited data

How the results depend on the processing

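None of the 9 factors passed the threshold in any setting, and 9 of 9 lay below 0 except without Atrx-cKO 1 (8) and without control 3 (7). Of 108 log2 fold changes of the factors under the alternatives, 105 kept their sign. Leaving out 1 library at a time moved *Dlx5* between -0.19 and 0.096 and *Twist1* between -0.29 and 0.041, the *Twist1* to *Runx2* ratio between -0.076 and 0.048, the *Dlx6* to *Dlx5* ratio between -0.10 and 0.017, *Msx1* relative to the osteoblast products between -0.072 and 0.13 and *Msx2* relative to them between -0.16 and 0.011, and the last was 0.018 with 1 CPM added and -0.32 with 0.1 CPM added; the cause was not tested. The lowest adjusted p of a factor was 0.337, for *Dlx3* without control 1 (log2 fold change -0.52). In that setting the edgeR unadjusted p was 0.011 for *Dlx3*, 0.023 for *Sp7*, 0.040 for *Msx2* and 0.046 for *Runx2*. For the other factors it was above 0.05. The share of all tested genes under 0.05 in that setting was not taken. Left-out libraries moved the log2 fold changes both ways, from -0.22 (without control 1) to -0.010 (without control 3) for *Runx2*, from -0.33 (without control 1) to -0.10 (without Atrx-cKO 1) for *Sp7*, from -0.52 (without control 1) to -0.25 (without Atrx-cKO 1) for *Dlx3*, from -1.10 (without control 1) to -0.43 (without control 3) for *Msx2*, from -0.18 (without Atrx-cKO 3) to -0.0082 (without Atrx-cKO 1) for *Dlx6*, from -0.37 (without Atrx-cKO 2) to -0.16 (without Atrx-cKO 3) for *Msx1* and from -0.18 (without Atrx-cKO 1) to -0.0093 (without Atrx-cKO 3) for *Atf4*.

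Over all genes, 3 were called higher and 0 lower. Without a count filter 1 was lower, with at least 10 counts in every library 1 was higher, DESeq2 called 10 higher and 13 lower, and single libraries left out gave 0 to 5 higher and 0 to 1 lower. Same-numbered tibias did not deviate together over all genes (correlations -0.028, 0.057 and -0.068). With 3 libraries per group, this cannot settle whether the numbers pair mice. A replicate block called 0 genes higher and left the *Dlx3* log2 fold change at -0.38. The standard error of *Dlx3* was 0.067 with the block and 0.17 without it. Its edgeR unadjusted p was 0.0015 with the block (adjusted p = 0.788) and 0.057 without it. The former was the lowest unadjusted p of any factor under any alternative. Depth limits *Msx2*, at 14 to 43 counts per library.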
